A study of Mus musculus with 28 samples.

Results

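The 4 libraries described here measured 5-methylcytosine (5mC) by immunoprecipitation of methylated DNA and sequencing (MeDIP-seq) in bone marrow cells labelled LK, 2 from wild-type mice (WT) and 2 from mice lacking Tet1 and Tet2 (DKO). They were taken by assay and genotype from the 28 samples of the series, 11 of which have peak lists, and were compared on chromosomes 1 to 19. All mice were of the C57BL/6 strain and were young, 6 to 10 weeks old by the series' design text. No agent or treatment is given for either group. LK usually names bone marrow progenitors that lack lineage markers and carry c-Kit, although the labels do not spell it out. Peak lists hold no expression values, so the cell type was not checked against marker genes, and no gene annotation of the files' build (mm9) was used, so regions are given by position and neither targeted locus was checked for its deletion.

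5mC is the main methylated base of mammalian DNA and is written mostly at CpG sites by DNA methyltransferases. The TET enzymes oxidise it to 5-hydroxymethylcytosine (5hmC) and further products, a step towards its removal. In blood-forming cells TET2 is best known because it is often mutated in myeloid disease, and 5hmC there lies mainly over genes and enhancers. TET1 and TET2 are consumers of 5mC, so the comparison of DKO with WT asks whether the map of 5mC changes when both are missing. MeDIP shows where methylated DNA is enriched, in short stretches, and not what share of the cytosines is methylated.

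The amount of DNA under 5mC peaks was nearly the same in both genotypes. WT replicate 1 had 125448 peaks on chromosomes 1 to 19 and WT replicate 2 had 139297, while DKO replicate 1 had 146192 and DKO replicate 2 had 119159. Both DKO libraries thus lay outside the range of the WT libraries, 1 on either side. The mean was 132372 ± 9793 peaks in WT (SD, n = 2) and 132676 ± 19115 in DKO (SD, n = 2). Covered length was 44.1 and 43.6 Mb in the WT libraries and 44.6 and 43.1 Mb in the DKO libraries, which again enclosed the WT values. The mean difference was -0.0336 Mb, or -0.0767% of the WT mean.

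Libraries differed from each other more than genotypes did, and mostly in the shape of their peaks. Median peak width was 321 bp in WT replicate 1 and 331 bp in DKO replicate 2, the libraries with fewer peaks. It was 283 bp in WT replicate 2 and 275 bp in DKO replicate 1, the libraries with more peaks. Peaks of at least 500 bp made up 10.7% and 11.8% of the first pair of lists and 6.98% and 6.45% of the second. In each genotype, then, 1 library had fewer and wider peaks and the other had more and narrower ones. The exact two-sided permutation test gave p = 1 for peak number, covered length, median width and the share of wide peaks (adjusted 1 over 4 quantities; 2 against 2 libraries cannot give less than 0.333). Leaving out 1 library turned the sign of each of these differences. For peak number the difference of DKO from WT ran from -13213.5 without DKO replicate 1 to 13819.5 without DKO replicate 2, and it was -6621.5 without WT replicate 1. Covered length turned to 0.239 Mb above WT without WT replicate 1 and 0.690 Mb without DKO replicate 2. Median width turned to -18 bp without WT replicate 2 and -27 bp without DKO replicate 2, and the share of wide peaks to -1.58 and -2.39 points without the same libraries. Read depth is unknown, and its part in the number and width of peaks was not tested. Separate animals are not stated for the 2 libraries of a genotype, so p-values measure a spread that may be technical.

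**Figure D1:**
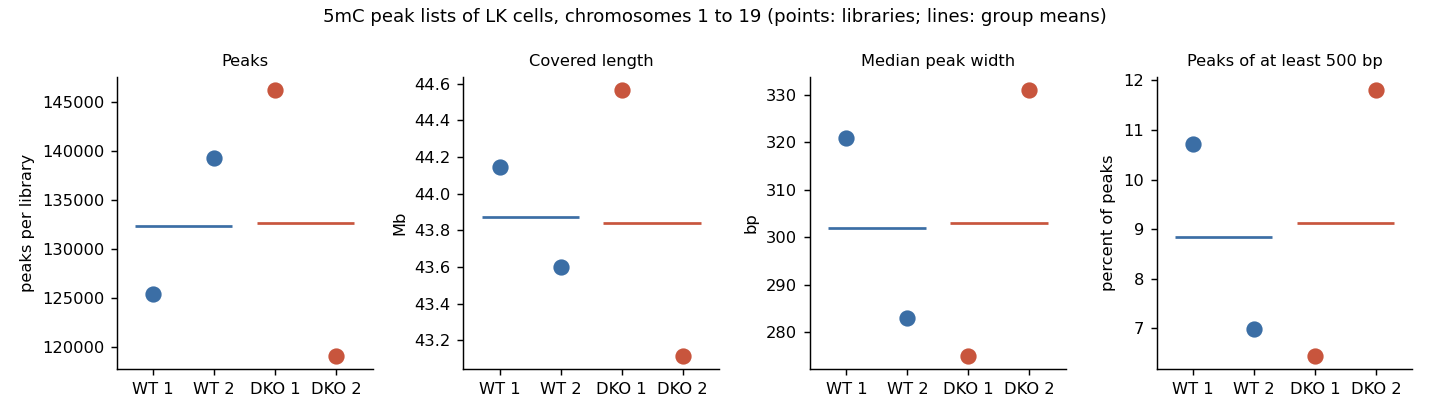
Number of 5mC peaks, covered length in Mb, median peak width in bp and percent of peaks of at least 500 bp on chromosomes 1 to 19, with 1 point per library and a line at each group mean; the vertical axes do not start at 0. In every panel the 2 DKO libraries lie on either side of both WT libraries, and the group means nearly coincide, at 132372 and 132676 peaks in WT and DKO.

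After peaks overlapping by at least 1 bp were merged there were 203184 regions. Every library had a peak in 73920 of them (36.4%), which are called constant here. Another 66427 (32.7%) had a peak in 1 library only, 34361 (16.9%) in 2 and 28476 (14.0%) in 3. Regions called in 1 library numbered 21760 for DKO replicate 1 and 19540 for WT replicate 2, the longer lists, against 13340 for WT replicate 1 and 11787 for DKO replicate 2. Regions missing from 1 library followed the reverse order, with 10692 missing only from DKO replicate 2 and 4121 missing only from DKO replicate 1. The count of such regions followed the length of the list.

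A region was called lost where both WT libraries and no DKO library had a peak, and gained for the opposite. By this rule 5113 regions (2.52% of all regions) were lost and 5515 (2.71%) were gained. A further 23733 regions were called in 1 WT and 1 DKO library. The libraries of a genotype resembled each other no more than libraries of different genotypes did. The WT libraries had 57.2% of the regions called in either of them in common, and the DKO libraries 56.4%. The 4 pairs of 1 WT and 1 DKO library shared 55.8% to 58.5%.

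**Figure D2:**
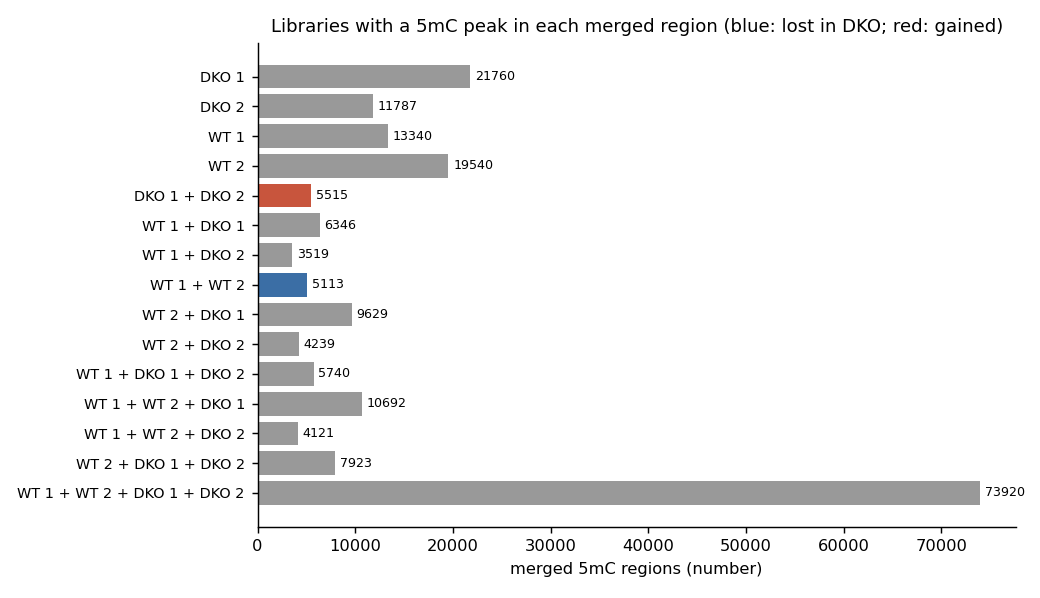
Number of merged 5mC regions (horizontal axis) for each combination of libraries with a peak (vertical axis), with lost regions in blue and gained regions in red. The 73920 constant regions form the longest bar, and the bars for 5113 lost and 5515 gained regions are among the shorter ones.

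Lost and gained regions were weak peaks, and so were regions called in 1 WT and 1 DKO library. Peak strength was read as the percentile of a peak's score within its own list, with 100 as the strongest, because scores are not on a known common scale. The median percentile was 26.0 for lost and 26.3 for gained regions, against 69.4 for constant regions and 17.7 for regions called in 1 library. Regions called in 1 WT and 1 DKO library had medians of 25.2 to 28.1, by pair of libraries. Among lost regions, 132 (2.58%) had both WT peaks above the 50th percentile of their lists, and among gained regions 166 (3.01%) had both DKO peaks there. Only 3 lost and 3 gained regions had both peaks above the 75th percentile, and none of either kind had both above the 90th, where 8759 constant regions lay. Lost and gained regions were also alike in size, with medians of 311 and 315 bp, and constant regions had a median of 451 bp. Those called in 1 WT and 1 DKO library had medians of 293 to 330 bp. Of lost regions 16.5% and of gained regions 16.7% lay within 1000 bp of a constant region, close to the 18.0% of all regions.

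**Figure D3:**
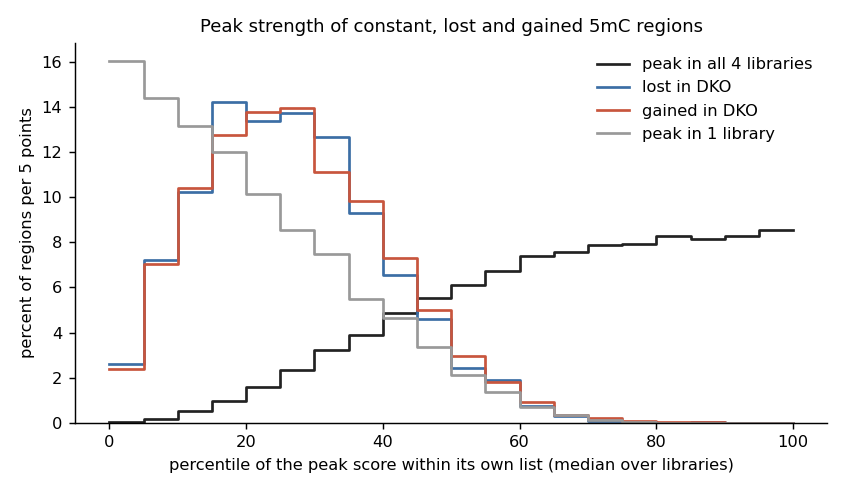
Distribution of regions (vertical axis, percent per 5 points) over the percentile of their peak score within its list (horizontal axis, median over the libraries with a peak) for constant, lost, gained and single-library regions. The curves for lost and gained regions lie on each other with medians of 26.0 and 26.3, and the constant regions rise towards the strong end with a median of 69.4.

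The strongest lost regions were few. The first, on chromosome 3 at 133132209 to 133132610 (402 bp), had scores of 323 and 279 in the WT libraries, at percentiles 89.9 and 86.2 of their lists, and no DKO peak. A narrow region on chromosome 5 at 72211328 to 72211450 (123 bp) had scores of 263 and 271, at percentiles 86.3 and 85.6, and lay 256480 bp from the nearest constant region. The third, on chromosome 5 at 112114686 to 112115364 (679 bp), was at percentiles 77.3 and 76.3. None of the 5 strongest lost regions overlapped a region with 5hmC peaks in both WT or in both DKO 5hmC libraries. Of all lost regions 14.3% overlapped 5hmC of WT and 12.8% overlapped 5hmC of DKO. Over all regions the shares were 21.4% and 18.9%, so 5 regions are too few to show a departure. The widest lost region, on chromosome 8 at 121849056 to 121850015 (960 bp), had 673 and 605 bp under WT peaks and lay 592 bp from a constant region. In WT its scores were at percentiles 57.7 and 60.1.

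The strongest gained region lay on chromosome 1 at 157283519 to 157283793 (275 bp), with scores of 311 and 231 in the DKO libraries, at percentiles 88.0 and 84.4 of their lists. Next came regions on chromosome 12 at 103951516 to 103951900 (385 bp, percentiles 81.8 and 79.1) and chromosome 8 at 14961539 to 14961882 (344 bp, percentiles 75.6 and 83.3). Both of these overlapped regions with 5hmC peaks in both WT and in both DKO 5hmC libraries, and the strongest region overlapped neither kind. The fourth in strength, on chromosome 6 at 135040081 to 135040301, overlapped neither. The fifth, on chromosome 19 at 21119996 to 21120519, overlapped both. The gained region of greatest width, 118348343 to 118349308 of chromosome 11 (966 bp), carried weaker peaks, at percentiles 29.2 and 15.4, and also overlapped such 5hmC regions. The second in width, on chromosome 14 at 69981015 to 69981923 (909 bp), had 503 and 909 bp covered, at percentiles 19.7 and 38.7. It overlapped no such 5hmC region.

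Across the genome, 5mC peaks were unevenly spread, and the pattern was shared by all 4 libraries. Of 24727 bins of 100 kb, 16668 had a peak in every library and 4004 had none in any. Covered percent of a bin correlated between libraries with Pearson's r of 0.970 to 0.976 over the 6 pairs, across 19231 bins that share a genome and its base composition, and bins are not independent replicates. The densest bin, 112500001 to 112600000 of chromosome 12, was covered to 23.2% and 22.7% in WT and 23.1% and 22.4% in DKO, and the next, 116300001 to 116400000 of chromosome 5, to 23.1% and 22.4% in WT and 21.4% and 21.8% in DKO. The first of these bins did not separate the groups, whereas in the second both DKO libraries were below both WT libraries (limma, adjusted p = 0.972). The widest constant region, on chromosome 15 at 76002533 to 76012837 (10305 bp), was covered over 10110 and 10025 bp in WT and 9681 and 10076 bp in DKO. The next, on chromosome 17 at 39979831 to 39985841 (6011 bp), was covered over 5951 and 5502 bp in WT and 5969 and 5566 bp in DKO.

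No bin of 100 kb was called different between DKO and WT after adjustment. The covered fraction was compared by limma on the arcsine of its square root, over the 19231 bins where 2 or more libraries had peaks. With Benjamini-Hochberg adjustment 0 bins passed 0.05 (0%; smallest adjusted p = 0.972). Before adjustment 916 bins (4.76%) passed 0.05, and in DKO 400 of these were higher (2.08%) and 516 were lower (2.68%). Coverage was higher in DKO in 9250 bins and lower in 9974. The mean difference was -0.000631 percentage points with an SD of 0.421 over bins, and in 15628 bins (81.3%) it was smaller than 0.5 points. The SD of the difference between the WT libraries was 0.605 points and that between the DKO libraries 0.610 points, within the range of 0.565 to 0.634 points for pairs of different genotype. The 95% interval of a bin's difference, without adjustment, reached 0.0323 to either side at the median on the arcsine scale. Smaller shifts of single bins were not detectable. Larger ones did not pass either, such as 0.0847 on chromosome 7 at 108200001 to 108300000 (limma, adjusted p = 0.972). That bin had no peak in either WT library, and 0.477% and 1.00% of it were covered in the DKO libraries. It was thus tested through the DKO libraries alone, and the arcsine scale stretches differences near 0.

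The bins with the smallest unadjusted p showed differences that were small in percentage points but large against their own coverage. On chromosome 5 at 76300001 to 76400000, 1.41% and 1.57% were covered in WT and 3.36% and 3.045% in DKO, and the bin held 4 gained and 0 lost regions. On chromosome 11 at 20100001 to 20200000, coverage was 0.603% and 0.846% in WT and 2.37% and 1.82% in DKO. On chromosome 14 at 67000001 to 67100000, it was 1.71% and 1.57% in WT and 0.437% and 0.631% in DKO. The groups did not overlap in any of these bins, as in 2889 bins (15%) with both DKO libraries above both WT libraries and 3231 (16.8%) with both below. Of the 10 bins, 6 had no peak in either library of 1 genotype, such as 41300001 to 41400000 of chromosome 16, where the WT libraries had 0.536% and 0.662% and the DKO libraries none. All 10 had an adjusted p of 0.972 in limma.

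Among bins whose groups did not overlap, the largest difference upwards was in 69900001 to 70000000 of chromosome 14, where coverage was 5.11% and 3.36% in WT and 8.37% and 5.73% in DKO. This bin holds the second widest gained region. On chromosome 16 at 92300001 to 92400000, WT had 7.88% and 7.94% and DKO had 9.76% and 11.5%. The order of these bins rests on single libraries, because on the arcsine scale the chromosome 14 difference of 0.0615 was 0.0396 without WT replicate 2 and 0.0356 without DKO replicate 1, when that of chromosome 16 was 0.0476 and 0.0614. With a minimum peak score of 100 the 2 differences were 0.0363 and 0.0183. The bin on chromosome 5 at 116400001 to 116500000, next to one of the densest bins, had 14.4% and 14.5% in WT and 15.4% and 18.6% in DKO, but its difference changed sign when only peaks of a score of at least 100 were used. The largest difference downwards was on chromosome 9 at 108000001 to 108100000, with 15.9% and 14.6% in WT and 13.4% and 11.96% in DKO. On chromosome 8 at 121800001 to 121900000, which holds the widest lost region and 2 others, WT had 7.88% and 7.86% and DKO had 5.68% and 5.635%. None of these bins passed after adjustment (limma, adjusted p = 0.972).

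**Figure D4:**
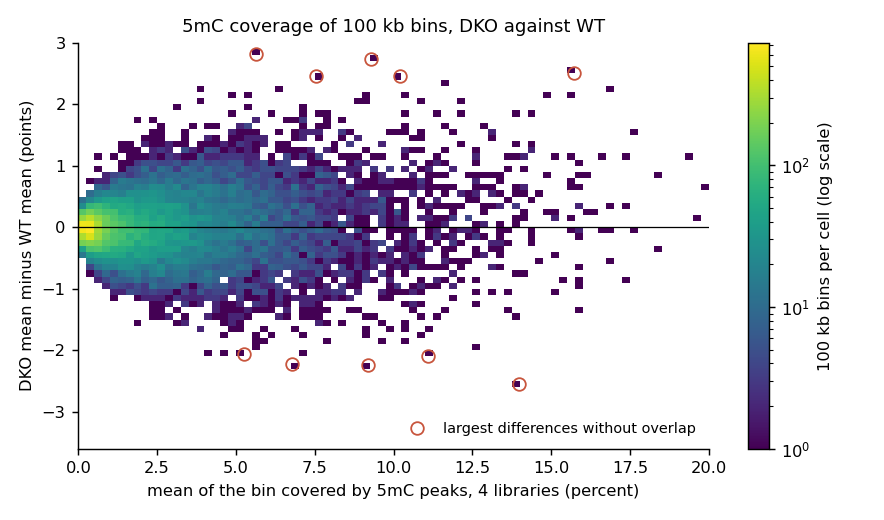
Difference of mean 5mC coverage between DKO and WT in percentage points (vertical axis) against the mean coverage of the bin over 4 libraries in percent (horizontal axis), coloured by the number of 100 kb bins on a log scale; 11 bins lie beyond the right edge. The cloud is centred on 0, and the ringed bins, those with the largest differences among bins whose groups do not overlap, reach 2.82 points up and 2.55 points down.

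Whole chromosomes did not separate the genotypes. On each of the 19 chromosomes the covered percent of the DKO libraries overlapped that of the WT libraries, so that 0 chromosomes (0%) lay above and 0 (0%) below, and none had an unadjusted p under 0.05 (limma, smallest adjusted p = 0.976). Coverage was highest on chromosome 11, with 2.58% and 2.62% in WT and 2.66% and 2.58% in DKO. Among the lowest was chromosome 3, with 1.25% and 1.20% in WT and 1.22% and 1.20% in DKO. Differences of the means ran from -0.0235 to 0.0409 percentage points. DKO replicate 2 was below DKO replicate 1 on 18 of the chromosomes, and WT replicate 2 was below WT replicate 1 on 16. Lost regions made up 2.14% to 2.80% and gained regions 2.51% to 3.24% of the regions of a chromosome, and gained outnumbered lost regions on 16 of 19. Over all chromosomes there were 1.08 gained regions per lost region. This ratio depended on the score threshold and on single libraries: it was 0.999 and 0.913 with minimum peak scores of 100 and 200, 0.456 without WT replicate 1, 0.727 without WT replicate 2 and 2.96 without DKO replicate 2.

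The median width of constant regions did not separate the genotypes. The median length under peaks in these 73920 regions was 364 and 330 bp in the WT libraries and 326 and 370 bp in the DKO libraries, which enclosed the WT values. The median difference on the log2 scale was 0.0075, and the middle 90% of regions lay between -0.48 and 0.49. No region passed in limma (0 of 73920, 0%; smallest adjusted p = 0.576), while before adjustment 2635 (3.56%) passed 0.05, with 1351 wider (1.83%) and 1284 narrower (1.74%) in DKO. Without WT replicate 1, a fit in which the lone WT library is taken to vary like the DKO libraries, 4 regions passed, all wider in DKO. At the median the 95% interval, without adjustment, reached 0.65 to either side on the log2 scale. Moderate changes of a single region were not detectable. Larger ones did not pass either, such as 1.81 on chromosome 18 at 13190646 to 13191389 (limma, adjusted p = 0.576).

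The region with the smallest p among those wider in DKO lay on chromosome 17 at 34230621 to 34231687, with 332 and 379 bp covered in WT and 1017 and 936 bp in DKO, a ratio of 2.75. On chromosome 11 at 76859403 to 76860226, WT had 273 and 255 bp and DKO had 751 and 823 bp. On chromosome 5 at 124328471 to 124330412, a broad region, the values were 1109 and 1183 bp in WT and 1775 and 1828 bp in DKO. In the other direction, the region on chromosome 2 at 180966689 to 180967627 had 806 and 852 bp in WT and 345 and 353 bp in DKO, and that on chromosome 11 at 115095285 to 115095879 had 589 and 579 bp in WT and 193 and 225 bp in DKO. Replicates of a genotype were close in these regions and the groups did not overlap, which a choice by smallest p favours. The length under peaks sums all peaks of a library in a region. In each region named here at least 1 library had several peaks, so these values are not widths of single peaks throughout. Over all constant regions, the groups did not overlap in 11270 (15.2%) that were wider and 10709 (14.5%) that were narrower in both DKO libraries. Each of the regions named here had an adjusted p of 0.576 in limma.

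The order of strength among constant regions was also compared region by region. Each constant region was given the percentile of its score among all constant regions of the library, so that all libraries were ranked over the same set. Between libraries Spearman's rho was 0.763 to 0.808 over the 6 pairs, across regions, and the WT pair (0.783) and the DKO pair (0.776) were inside that range. No region passed in limma (0 of 73920, 0%; smallest adjusted p = 0.995), while before adjustment 2806 (3.8%) passed 0.05, with 1457 higher (1.97%) and 1349 lower (1.82%) in DKO. Leaving out WT replicate 1 gave 5 calls, all higher in DKO. Leaving out DKO replicate 1 gave 31 and leaving out DKO replicate 2 gave 18, all lower in DKO, again with 1 library standing for a genotype.

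The region with the smallest p among those ranked higher in DKO was on chromosome 17 at 34348729 to 34349357, at percentiles 77.2 and 72.9 in WT and 94.2 and 95.8 in DKO, with scores of 264 and 268 against 731 and 686. The region on chromosome 8 at 124800796 to 124801496 was at 77.3 and 84.4 in WT and 95.7 and 96.2 in DKO. In the other direction, the region on chromosome 9 at 110527439 to 110528132 was at 94.1 and 93.7 in WT and 79.4 and 80.6 in DKO. The region on chromosome 1 at 95918827 to 95919643 was at 94.1 and 93.3 in WT and 83.0 and 82.2 in DKO. Each had an adjusted p of 0.995 in limma. None of these groups overlapped, which held for 11880 constant regions (16.1%) upwards and 11844 (16%) downwards.

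The last comparison set the 5mC peaks beside 5hmC, the product that TET enzymes make from 5mC, measured in separate libraries by chemical capture (hMe-Seal). The reference was the 96539 regions with a 5hmC peak in both WT libraries or, as a second reference, the 101754 with a peak in both DKO libraries. In DKO a larger share of 5mC peaks lay on 5hmC. Of the 5mC peaks 22.5% and 22.9% overlapped 5hmC of WT in the WT libraries and 23.7% and 24.8% in the DKO libraries. Against 5hmC of DKO the shares were 19.4% and 19.7% in WT and 20.6% and 21.5% in DKO. Both DKO libraries were above both WT libraries for either reference, by a mean of 1.55 and 1.52 points (exact two-sided permutation p = 0.333 for each, adjusted 0.333 over the 2 references, the smallest value that 2 against 2 can give). Among peaks of 250 to 400 bp alone the groups overlapped, with 20.9% and 23.0% on 5hmC of WT in WT and 24.5% and 22.5% in DKO (exact permutation p = 0.667). In the single 5mC library of Tet2KO mice the shares of all peaks were 23.9% and 20.7% for the 2 references, inside the DKO range.

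The same order was seen in lengths. The 5mC length inside 5hmC regions of WT was 10.5 and 10.7 Mb in the WT libraries and 11.3 Mb in each of the DKO libraries, although DKO replicate 2 had the smallest covered length of all. As a share of the covered length this was 23.9% and 24.5% in WT and 25.4% and 26.3% in DKO. The difference was 1.67 points, with the groups apart (exact two-sided permutation p = 0.333).

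Gained 5mC regions were found on 5hmC more often than lost ones. Of the lost regions 14.3% (95% exact interval 13.3 to 15.2) and of the gained regions 25.7% (24.5 to 26.9) overlapped 5hmC of WT, and 26.6% of the wider constant regions did. Over all 203184 regions the share was 21.4%, and over regions called in 1 library 17.2%. Against 5hmC of DKO the shares were 12.8% and 23.7%. Restricted to regions of 250 to 400 bp, 14.9% of lost, 26.4% of gained and 17.6% of constant regions lay on 5hmC of WT. The intervals cover counting error only, and regions of the same 4 libraries are not replicates. The share was higher for gained than for lost regions on 19 of 19 chromosomes, by 3.11 to 19.3 points. The gap of 11.4 points was 19.6 points with a minimum peak score of 100 and fell to 8.20 without WT replicate 1, 5.86 without DKO replicate 1 and 4.77 without DKO replicate 2. Regions where 5hmC itself was called in both WT and in neither DKO library were rare among both, at 1.90% of lost and 2.30% of gained 5mC regions, against 2.40% of all regions.

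Regions called in a single library allow the same comparison library by library. Of those found only in WT replicate 1, 13.3% lay on 5hmC of WT, and of those found only in WT replicate 2, 15.8% did. For DKO replicate 1 and replicate 2 the shares were 19.4% and 19.8%. The groups did not overlap, and they stayed apart among regions of 250 to 400 bp, with 14.7% and 18.2% in WT and 23.4% and 21.7% in DKO. Regions missing from 1 library showed the mirror image. Those absent only from a WT library lay on 5hmC in 27.3% (WT replicate 1) and 21.7% (WT replicate 2), and those absent only from a DKO library in 18.0% (DKO replicate 1) and 16.7% (DKO replicate 2).

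Constant regions on 5hmC ranked higher in the DKO libraries. For the 19642 constant regions that overlapped 5hmC of WT, the median rank was at percentile 55.4 and 57.0 in WT and 59.5 in each DKO library. For the 54278 others it was 48.3 and 47.7 in WT and 46.8 in each DKO library. Their median length under peaks, in contrast, followed the width of the library, with 401 and 367 bp on 5hmC in WT and 369 and 415 bp in DKO. Of the regions on 5hmC 57.3% ranked higher in DKO on average, and of the others 47.2% did. Ranks within 1 set sum to the same total, so a rise of the one part and a fall of the other are a single observation.

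Bins of 100 kb were also sorted by 5hmC, an order in which 5mC coverage rises as well. By WT 5hmC coverage, the quintile of bins with most 5hmC (10.2% to 81.0% covered) had mean 5mC coverage of 5.08% in each WT library and 5.26% and 5.13% in the DKO libraries. In the 2 quintiles with least 5hmC, between which bins without any 5hmC were divided, the DKO means differed from the WT means by -4.54% and -4.63%, although the libraries overlapped, with 0.828% and 0.800% in WT and 0.801% and 0.754% in DKO for the lowest. From least to most 5hmC the number of gained regions per lost region was 0.828, 0.796, 0.933, 1.07 and 1.33. Which of these values lie below or above 1 rests on single libraries, since the ratio over all regions moved from 0.456 without WT replicate 1 to 2.96 without DKO replicate 2. Bins sorted by 5mC coverage itself gave a gradient of the same direction, with differences of DKO from WT of -0.0173, -0.0229, -0.0299, 0.00841 and 0.0586 points from the least to the most covered quintile. The corresponding differences by 5hmC were -0.0370, -0.0411, -0.0407, -0.00263 and 0.118 points. The order by 5hmC was not tested apart from the order by 5mC.

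In all, 20 such quantities on 5hmC, chosen after the first shares had been seen, were tested by exact two-sided permutation. In 14 of them the groups did not overlap. The smallest adjusted p was 0.476, and with 2 libraries per genotype no adjusted p could pass 0.05. The quantities are read from the same 4 libraries, so their common direction counts once. The part of read depth, which is unknown, was not tested.

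**Figure D5:**
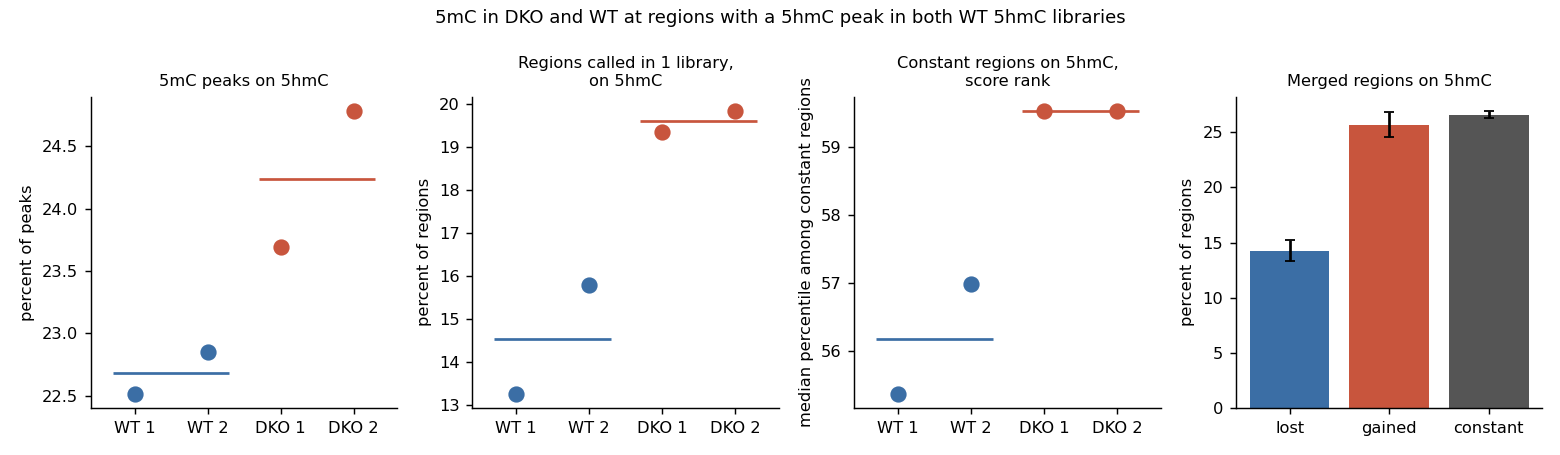
From left to right, percent of 5mC peaks on 5hmC, percent of single-library regions on 5hmC and median score rank of constant regions on 5hmC, with 1 point per library, lines at group means and axes that do not start at 0; the bars give the percent of lost, gained and constant regions on 5hmC with 95% exact intervals for counting error. In the 3 plots of points both DKO libraries lie above both WT libraries, and gained regions reach 25.7% against 14.3% for lost regions.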

How the data were processed

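The authors deposited 1 peak list per library, without pooling of replicates. Each peak has a position and a score, which the authors' peak caller wrote for that list. The submitters' processing notes name MACS 1.4.2, Bowtie 0.12.9, CASAVA 1.4 and mm9 without saying what each was used for. The sources used here give no control library, duplicate removal or depth. Every list reaches down to a score of 50, so signal under that threshold is not seen.

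Groups and replicate numbers came from sample titles. Peaks on chromosomes 1 to 19 were kept, and 1084 to 1742 others per library were left out. Peaks were merged at 1 bp of overlap, and positions count from 1. Covered fractions of 100 kb bins and chromosomes (length taken as the last peak end), widths and ranks were fitted with limma 3.58.1 in R 4.3.3. A trend in the prior variance was used except for chromosomes. Only the fit of bins was run on simulated data, with normal noise of the same spread in every bin, unlike the real bins. Adjusted p under 0.05 counted as a call. Single values were compared by exact permutation. Named bins and regions were the first 5 in each direction by p, by size without overlap, by width or by strength, and the text gives a part of them. The members, lists and alternatives were chosen with earlier results of these data known. The lists of gene names that had been prepared were not used, because no annotation of mm9 was at hand. The alternatives tried were minimum scores, equal list lengths, bin sizes, filters, transformations, merging rules, a fit with the 5mC Tet2KO library, the replicate number as a block, and each library left out. The references for 5hmC came from the deposited lists by the same merging.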

Additional observations from a re-analysis of the deposited data

How the results depend on the processing

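For bins of 100 kb and for chromosomes, 0 calls were made under every alternative run (9 and 3, limma) and without any single library. For widths 0 calls were made under 6 alternatives, and 0 to 4 when 1 library was left out. For ranks the replicate block gave 9 calls (5 higher and 4 lower, smallest adjusted p = 0.00969, reached by the regions on chromosome 17 at 34348729 and chromosome 8 at 124800796), the other 3 alternatives gave 0, and leaving out 1 library gave 0 to 31. The replicate block gave 0 calls for bins, chromosomes and widths. Same-numbered libraries did not deviate together (correlation of deviations -0.0601 over bins, -0.0374 for widths and -0.0635 for ranks), so the block rests on a shared number only. The difference of DKO from WT in peak number was -344.5 with a minimum peak score of 100, and in covered length 0.129 Mb with equal numbers of top peaks, both with the opposite sign. With 1 library left out it ran from -13213.5 to 13819.5 peaks, -0.757 to 0.690 Mb, -27 to 29 bp in median width and -2.39 to 2.95 points in wide peaks. With a minimum score of 100, 2132 regions were lost and 2129 gained, and at 200 the counts were 793 and 724. Fewer libraries set a weaker condition, and with 1 left out 9316 to 24876 were lost and 11350 to 27563 gained. The gap between gained and lost regions on 5hmC was 19.6 points with a minimum score of 100 or of 200, 13.7 points with equal numbers of top peaks, and 4.77 to 13.1 points with 1 library left out. The shares of peaks and of length on 5hmC, and the rank of constant regions on 5hmC, kept their direction in every alternative run. For the shares, leaving out 1 library could not have turned the direction, because both DKO libraries lay above both WT libraries. The bin on chromosome 5 at 116400001 to 116500000 was -0.0138 on the arcsine scale with a minimum peak score of 100, and the cause was not tested. The alternatives for the 5hmC gap, length and rank were chosen after seeing the data. Depth is unknown, and its part in these results was not tested.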
